A study of Mus musculus with 9 samples.

Results

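The subject of this report is a set of 10 genes that release, store and recover calcium in the heart muscle cell, out of 52636 genes counted by RNA sequencing of mouse left ventricle. They are *Ryr2*, *Atp2a2*, *Pln*, *Sln*, *Casq2*, *Casq1*, *Slc8a1*, *Jph2*, *Trdn* and *Hrc*. All 10 were found by symbol in the table, and 9 were among the 16322 genes expressed highly enough to be tested, *Sln* being left out by the filter on low counts. The tissue came from C57BL6J mice at 16 weeks of age. The genotype labelled KO carries floxed *Vdac2* together with a Cre recombinase under the αMHC promoter, which is active in heart muscle cells, so that other cells of the ventricle keep the gene. The controls labelled WT had either the floxed gene or the Cre, and the labels do not say which control had which. 5 libraries are labelled WT (libraries 1 to 5) and 4 are labelled KO (libraries 6 to 9). The labels do not state that each library is a separate animal, so p-values measure the spread between these libraries only.

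*Vdac2* (chr14:21825238-21845879, plus strand, ENSMUSG00000021771; all coordinates are GRCm38), the deleted gene, did not follow the labels. In CPM (counts scaled to the TMM-normalized library size), libraries 1 to 5 held 20.2, 366, 58.5, 365 and 21.3, and libraries 6 to 9 held 384, 20.5, 421 and 19.1. Libraries 1, 5, 7 and 9 were therefore set beside libraries 2, 4, 6 and 8, as chosen by their measured *Vdac2* level (under 100 CPM and over 300 CPM, called Vdac2-low and Vdac2-high), and library 3, also under 100 CPM, is shown apart. No library lay between these limits, the nearest values being 58.5 CPM in library 3 and 365 CPM in library 4. Each of these sets holds 2 libraries of each label. Because the sets were selected on a measured value and not on a label, their differences are given as a description, with no test, and no library was assigned a genotype. The label also coincided with sequencing lane (lane 1 for WT, lane 2 for KO) and with sex-linked expression: *Xist* was at 0.0366 to 0.152 CPM in the libraries labelled WT and at 335 to 587 CPM in those labelled KO. Lane, sex-linked expression and label cannot be told apart. Between 27345052 and 44673988 reads were counted per library, and a floor of 3 counts corresponded to 0.0693 to 0.114 CPM, which covers counting error only. Library 3 stood apart from the others in the calcium cycling genes, which summed to 6075 CPM there against 24352 to 30972 CPM in the other 8 libraries.

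At each heartbeat a small calcium current through the surface membrane opens ryanodine receptors in the sarcoplasmic reticulum, the calcium store that wraps the myofibrils, and the released calcium starts contraction. The muscle relaxes as the SERCA pump returns calcium to the store and the sodium-calcium exchanger extrudes the remainder from the cell. Small membrane proteins restrain the pump, calcium-binding proteins buffer the store, and a scaffold of junctional proteins holds the release channel close to the surface membrane. Lower levels of the pump are a well known feature of the failing heart.

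The promoters of 3 of these genes are shown to give the sequence context of genes that behaved differently in the comparison by *Vdac2* level: *Hrc* and *Jph2*, whose levels did not overlap between the sets, and *Casq2*, whose levels did. RefSeq promoters (GRCm38.p6, 250 bases before to 50 bases after the start) were matched for 7 of the 10 genes, the others being *Atp2a2*, *Sln* and *Trdn*. Each is printed 5′ to 3′ on the strand of the gene, with capitals marking a match, on either strand, to an E-box (CANNTG), a GATA motif (GATAA), an MCAT motif (CATTCC), the MEF2 motif or the CArG box, of which the last 2 can share letters. *Jph2* has 2 start entries in the table, and the upstream of these is shown. The regions are chr7:45335019-45335318 (plus strand), chr2:163397944-163398243 (minus strand) and chr3:102086165-102086464 (plus strand).
Hrc: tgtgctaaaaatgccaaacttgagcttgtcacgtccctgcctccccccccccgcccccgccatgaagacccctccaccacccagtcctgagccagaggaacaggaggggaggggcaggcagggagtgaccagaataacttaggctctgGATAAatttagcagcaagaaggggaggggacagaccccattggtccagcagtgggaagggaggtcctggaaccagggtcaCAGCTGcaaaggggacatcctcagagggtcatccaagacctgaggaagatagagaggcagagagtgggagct
Jph2: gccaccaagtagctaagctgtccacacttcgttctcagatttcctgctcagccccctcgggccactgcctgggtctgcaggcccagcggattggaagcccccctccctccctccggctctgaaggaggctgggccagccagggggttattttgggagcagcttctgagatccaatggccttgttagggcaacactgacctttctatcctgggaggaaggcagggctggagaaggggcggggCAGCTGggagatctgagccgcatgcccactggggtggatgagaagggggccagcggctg
Casq2: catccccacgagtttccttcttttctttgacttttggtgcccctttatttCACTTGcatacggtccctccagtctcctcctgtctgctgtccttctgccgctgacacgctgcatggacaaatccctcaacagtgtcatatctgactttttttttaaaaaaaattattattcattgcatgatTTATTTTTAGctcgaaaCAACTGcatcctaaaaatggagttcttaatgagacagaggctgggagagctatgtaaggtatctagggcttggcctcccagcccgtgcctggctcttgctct
*Hrc* held an E-box and a GATA match, *Jph2* an E-box, and *Casq2* 2 E-boxes and a MEF2 match. An E-box is present in 72.3% of the 32851 promoters of the same table, the GATA motif in 25.4%, the MCAT motif in 14.7%, the MEF2 motif in 3.19% and the CArG box in 1.63%. These matches are descriptions of letters in a window, not of binding.

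*Ryr2* (chr13:11553102-12106945, minus strand, ENSMUSG00000021313) encodes the ryanodine receptor, the channel through which calcium leaves the store. Its level was 4794, 4963, 4924 and 3453 CPM in libraries 1, 5, 7 and 9 and 5398, 5247, 5721 and 4891 CPM in libraries 2, 4, 6 and 8. The Vdac2-low median was 8.71% lower (log2 ratio -0.13), but the sets overlapped, since libraries 5 and 7 lay above library 8. Library 9 was lowest of the 8. Within the label WT both Vdac2-low libraries lay below both Vdac2-high libraries (log2 ratio -0.13), whereas within the label KO the sets overlapped (log2 ratio -0.34). In library 3 *Ryr2* was at 1344 CPM.

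Of the scaffold, *Jph2* (chr2:163336242-163397993, minus strand, ENSMUSG00000017817) encodes junctophilin-2, which tethers the sarcoplasmic reticulum to the transverse tubules. It was at 222, 232, 212 and 277 CPM in the Vdac2-low libraries 1, 5, 7 and 9, and at 295, 279, 356 and 333 CPM in the Vdac2-high libraries 2, 4, 6 and 8. The sets did not overlap, and the median was 27.6% lower in the Vdac2-low libraries (log2 ratio -0.47). Over the 16 pairs of a Vdac2-low and a Vdac2-high library the difference ran from 0.592% to 40.4% lower, the narrowest being library 9 against library 4. *Trdn* (chr10:33080554-33476709, plus strand, ENSMUSG00000019787) encodes triadin, which links the release channel to calsequestrin. Its level was 352, 372, 368 and 407 CPM in the Vdac2-low set and 414, 449, 413 and 469 CPM in the Vdac2-high set, in the same library order. These did not overlap either, with a median 14.1% lower (log2 ratio -0.22) and pairs from 1.55% to 24.9% lower. Scaled by library totals alone, both genes overlapped, with log2 ratios of -0.39 for *Jph2* and -0.16 for *Trdn*. In library 3, *Jph2* was at 141 CPM and *Trdn* at 181 CPM, below all other libraries for both genes.

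Among the proteins that hold calcium inside the store, the histidine-rich calcium-binding protein gene *Hrc* (chr7:45335290-45338974, plus strand, ENSMUSG00000038239) was lower in every Vdac2-low library than in any Vdac2-high library. It was at 480.3, 478, 494 and 427 CPM where *Vdac2* was low and at 599, 597, 633 and 600.3 CPM where *Vdac2* was high. The median was 20.1% lower (log2 ratio -0.32), and every pair of libraries differed by 17.4% to 32.6%. *Casq2* (chr3:102086415-102146514, plus strand, ENSMUSG00000027861), the cardiac calsequestrin and main calcium buffer of the store, showed no such separation. Its 1098, 1149.7, 1062 and 1374 CPM in libraries 1, 5, 7 and 9 and 1089.7, 1116, 1261 and 1159 CPM in libraries 2, 4, 6 and 8 overlapped, with a log2 ratio of medians of -0.017 (-0.051 to 0.016 with a library left out), and the highest level was that of library 9. *Casq1* (chr1:172209894-172219868, minus strand, ENSMUSG00000007122), the skeletal muscle calsequestrin, was low throughout. It was at 7.45, 5.67, 4.32 and 4.46 CPM in the Vdac2-low set and at 4.02, 5.44, 5.49 and 4.32 CPM in the Vdac2-high set, which overlapped (log2 ratio 0.053). With a library left out the ratio took either sign, from -0.13 without library 1 or 5 to 0.23 without library 4 or 6. Within the label WT libraries 1 and 5 lay above libraries 2 and 4 (log2 ratio 0.47, where 24.5% of all genes were higher without overlap), and within the label KO the sets overlapped (log2 ratio -0.16). Library 3 held 58.7 CPM of *Hrc*, 548 CPM of *Casq2* and 4.72 CPM of *Casq1*.

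*Atp2a2* (chr5:122453513-122502225, minus strand, ENSMUSG00000029467) encodes SERCA2, the pump that refills the store. It was at 9624, 10818, 10799.5 and 8937 CPM in the Vdac2-low libraries and at 12783, 12413, 13767 and 13264 CPM in the Vdac2-high libraries. The highest Vdac2-low library, library 5, lay below the lowest Vdac2-high library, library 4. The median was 21.6% lower (log2 ratio -0.35), and the 16 pairs ran from 12.8% to 35.1% lower. Library 3 held 2099.8 CPM.

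*Pln* (chr10:53337667-53345987, plus strand, ENSMUSG00000038583) encodes phospholamban, which inhibits the pump until it is phosphorylated. Its level was 7124, 7240.5, 7491 and 8828 CPM in libraries 1, 5, 7 and 9 and 7666, 7889, 7938 and 9020.4 CPM in libraries 2, 4, 6 and 8. The sets overlapped because of library 9, the second highest of the 8, and the log2 ratio of medians was -0.10. Without library 9 the sets would not overlap. Library 3 held 1203 CPM. *Pln* shares 1644 exon bases with *Gm47644* and 141 with *Cep85l*, both on the opposite strand and at no more than 5.81 and 50.4 CPM. The strand setting of the counting is not given in the sources used here. *Sln* (chr9:53850164-53854560, plus strand, ENSMUSG00000042045) encodes sarcolipin, the related pump inhibitor of atrial and skeletal muscle. It had 6 reads over all 9 libraries and at most 2 in any library, under the floor of 3 counts, so no fold is given.

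*Slc8a1* (chr17:81373105-81738377, minus strand, ENSMUSG00000054640), the sodium-calcium exchanger that removes calcium from the cell, was at 650, 782, 723 and 872 CPM in the Vdac2-low libraries and at 776, 764, 878 and 859 CPM in the Vdac2-high libraries. The sets overlapped, with library 9 second highest and library 1 lowest of the 8, and the log2 ratio of medians was -0.12. It moved to -0.044 without library 6 or 8, to -0.065 without library 1 or 7, to -0.18 without library 5 or 9 and to -0.19 without library 2 or 4. At 495 CPM in library 3 it kept more of its level there than the pump or the release channel did.

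**Figure D1:**
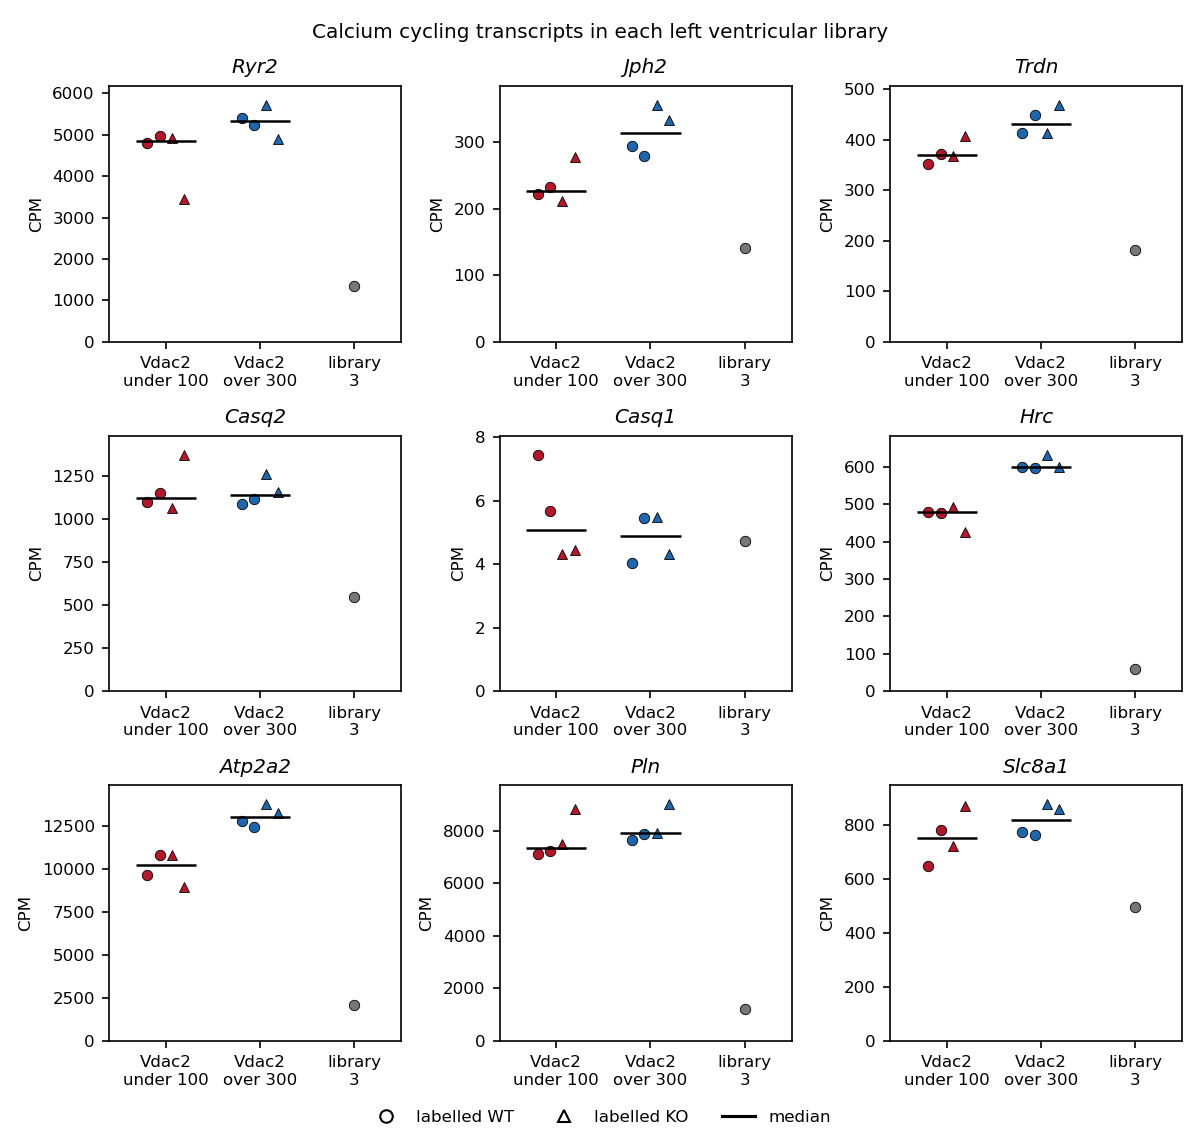
Level of each calcium cycling gene in every library, in CPM of the TMM-normalized library size, with libraries grouped by their measured *Vdac2* level and library 3 shown apart. *Hrc*, *Atp2a2*, *Jph2* and *Trdn* sit lower in libraries 1, 5, 7 and 9 than in libraries 2, 4, 6 and 8, while *Casq2*, *Casq1*, *Pln*, *Slc8a1* and *Ryr2* overlap.

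In all, 4 of the 9 expressed genes (*Atp2a2*, *Jph2*, *Trdn* and *Hrc*) were lower in every Vdac2-low library than in any Vdac2-high library, and 0 were higher. Over all 16322 tested genes, 4.93% were lower without overlap and 7.16% were higher. The sets were chosen by *Vdac2* with earlier results of these data known, so nothing is read from these counts beyond their values. The median log2 ratio of the 9 was -0.13, against 0.0050 over all tested genes, and 8 of 9 ratios were below 0. Sets that do not overlap over 8 libraries cannot overlap within a label, so the 4 genes add nothing there. Of the other 5, *Ryr2* and *Pln* were lower without overlap among the libraries labelled WT (6 of 9 in all, where 23.3% of all genes were lower), and 0 were among those labelled KO (4 of 9 in all, where 17.1% of all genes were lower). With library totals in place of TMM scaling, 2 of the 4 (*Atp2a2* and *Hrc*) did not overlap, against 2.65% of all genes, while *Jph2* and *Trdn* overlapped. The log2 ratio of *Pln* then became -0.033, that of *Slc8a1* -0.032, that of *Casq1* 0.12 and that of *Casq2* 0.051, of the opposite sign, while the median of all genes was 0.064. With library 3 added to the Vdac2-low libraries, *Casq2* was at -0.051 and *Casq1* turned to -0.049.

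**Figure D2:**
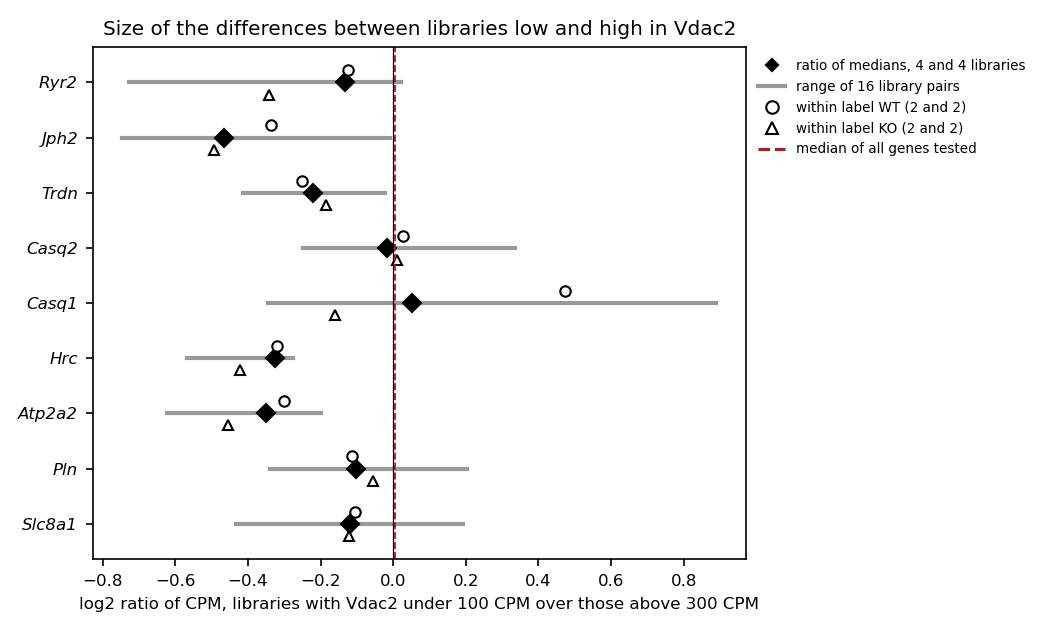
Log2 ratio of the median CPM in Vdac2-low libraries to that in Vdac2-high libraries for the 9 expressed calcium cycling genes, with the range over the 16 pairs of libraries. The range lies below 0 for *Jph2*, *Atp2a2*, *Hrc* and *Trdn* and crosses 0 for *Ryr2*, *Slc8a1*, *Pln*, *Casq2* and *Casq1*.

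Markers of the cell types of the ventricle were set beside the same split. The summed level of 9 ventricular cardiomyocyte markers was 52845 to 63586 CPM in Vdac2-low and 62844 to 73288 CPM in Vdac2-high libraries, and 16432 CPM in library 3. These sums overlapped. All 9 had a ratio of medians below 0, *Myl3* and *Mb* did not overlap and the other 7 did. All 6 fibroblast markers were above 0 (1980.5 to 2088 CPM against 1214 to 1569.6 CPM, library 3 at 8213 CPM), with *Col3a1* and *Postn* not overlapping, and so were all 5 macrophage markers (271 to 392 CPM against 174 to 263 CPM, library 3 at 846 CPM), with *Cd68*, *Adgre1* and *Ptprc* not overlapping. Endothelial markers were at 479 to 595 CPM against 595 to 689 CPM (library 3 at 342 CPM), with all 5 ratios below 0, and *Pecam1* was lower without overlap while the other 4 overlapped. Smooth muscle markers were at 251 to 545 CPM against 228 to 304 CPM (library 3 at 535 CPM) and adipocyte markers at 19.0 to 27.2 CPM against 18.6 to 20.9 CPM (library 3 at 9.90 CPM), and the 4 tested smooth muscle markers (median log2 ratio 0.020) and the 1 tested adipocyte marker all overlapped. Atrial markers were at 35.4 to 43.7 CPM against 34.9 to 37.9 CPM (library 3 at 25.3 CPM), with 3 of 7 tested below 0 and 1, *Myl4*, higher without overlap. Skeletal muscle markers were at 13.7 to 20.2 CPM against 12.5 to 16.0 CPM (library 3 at 11.1 CPM), with 2 of 5 tested below 0 and 1, *Tnnt3*, higher without overlap, on as few as 2 reads in library 8, under the floor of 3 counts. No marker was at 0 in all libraries. In bulk tissue, fewer heart muscle cells and less RNA of these genes per cell cannot be told apart, and the part of cell composition in the differences was not tested.

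Dividing each level by the summed ventricular cardiomyocyte markers, a scaling added after the data were seen, moved the median log2 ratio of all genes to 0.24 and that of the calcium cycling genes to 0.096. On this scale *Jph2* alone was lower without overlap, with its log2 ratio reduced from -0.47 to -0.15, at 3.55 to 4.36 per 1000 of the markers in Vdac2-low and 4.44 to 4.85 in Vdac2-high libraries, where 0.466% of all genes were lower. *Casq2* alone was higher without overlap, at 17.8 to 21.6 against 16.4 to 17.8, the nearest libraries of the sets being almost level, where 23.7% of all genes were higher. *Atp2a2* (log2 ratio -0.086), *Hrc* (-0.098) and *Trdn* (-0.014) stayed below 0 but overlapped, and *Ryr2* (0.096), *Pln* (0.11), *Slc8a1* (0.099) and *Casq2* (0.27, from -0.017) changed sign. *Casq1* went from 0.053 to 0.34 and overlapped.

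**Figure D3:**
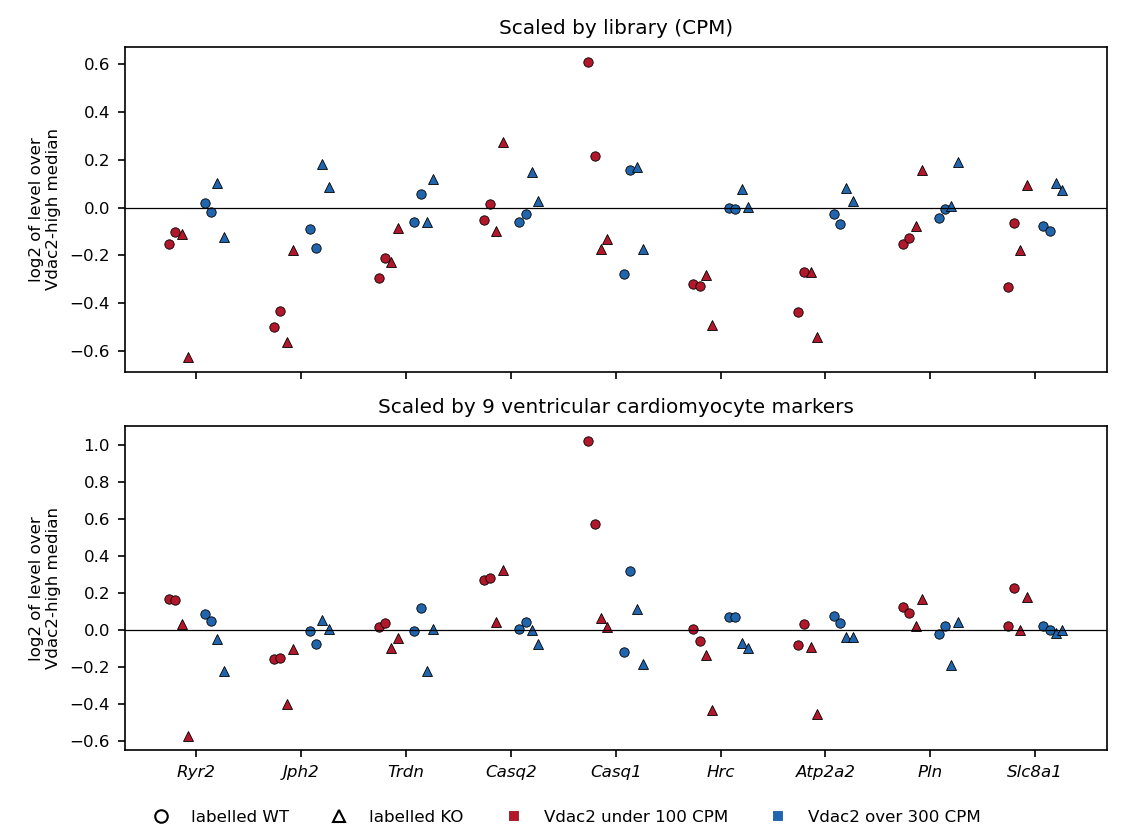
Log2 of each calcium cycling gene's level over its median in the Vdac2-high libraries, scaled by TMM and per summed ventricular cardiomyocyte marker level. *Jph2* does not overlap on either scale, with a log2 ratio of -0.47 on the first and -0.15 on the second, and *Casq2* lies higher in the Vdac2-low libraries on the second.

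Compared between genes, levels in CPM per kilobase of exon had a wide range. The median over the 8 libraries other than library 3 was 2819 for *Pln* (2582 to 3269), 1910.1 for *Atp2a2* (1469.7 to 2264), 414 for *Casq2* (388 to 502), 213 for *Hrc* (166 to 247) and 172 for *Ryr2* (119.9 to 199). Lower on this scale were *Jph2* at 65.4 (49.9 to 83.6), *Trdn* at 43.8 (37.6 to 50.1), *Slc8a1* at 41.4 (34.6 to 46.7) and *Casq1* at 2.54 (2.06 to 3.82). Of neighbours in this order, the ranges of *Hrc* and *Ryr2*, of *Jph2* and *Trdn* and of *Trdn* and *Slc8a1* overlapped, and those of the other neighbours did not.

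Ratios between members, and of some members to other genes of the pathway, are given as a description. No share over all pairs of genes was computed. *Atp2a2* and *Trdn* did not overlap on their own, so a ratio with either on top is not separate from that. The ratio of *Atp2a2* to *Slc8a1* was 45.8, 42.8, 46.2 and 31.7 in the Vdac2-low libraries and 50.9, 50.3, 48.5 and 47.7 in the Vdac2-high libraries, on the per-kilobase scale, and the sets did not overlap. The ratio of *Atp2a2* to *Pln* was 0.613, 0.678, 0.654 and 0.459 against 0.756, 0.714, 0.787 and 0.667, which overlapped overall but not within either label. Library 9 was the lowest of the 8 in both ratios, and library 3 stood at 13.1 for the first and 0.792 for the second. *Jph2* to *Ryr2* was 0.313, 0.317, 0.292 and 0.544 against 0.369, 0.360, 0.421 and 0.460 and overlapped, library 9 again apart. *Casq2* to *Ryr2* was 2.41, 2.44, 2.27 and 4.19 against 2.12, 2.24, 2.32 and 2.49 and overlapped. *Ryr2* to *Atp2a2*, the release channel against the pump, was 0.105, 0.0969, 0.0963 and 0.0816 against 0.0892, 0.0893, 0.0878 and 0.0779 and overlapped. *Casq2* to *Casq1* (105 to 220 against 146 to 193) and *Jph2* to *Jph1* (10.7 to 13.0 against 10.2 to 13.3) also overlapped. *Ryr2* to *Ryr1* and *Atp2a2* to *Atp2a1* were lower without overlap. *Trdn* to *Asph*, which is not a member, was 1.65, 1.82, 1.86 and 1.79 against 1.89, 2.01, 1.90 and 1.98 and did not overlap. Triadin and junctin, which is among the products of *Asph*, both bind the release channel. The *Asph* count covers the whole gene (16102 exon bases), so the ratio is not one of triadin to junctin.

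**Figure D4:**
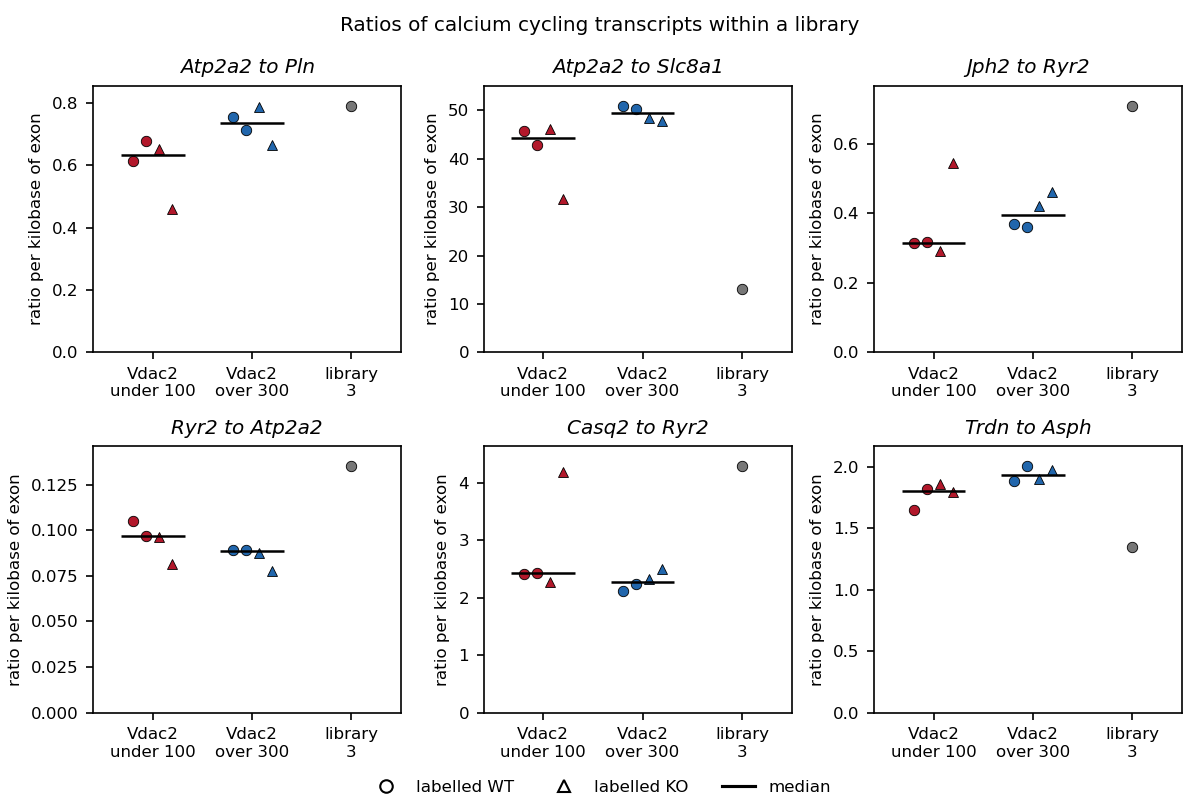
Ratios between calcium cycling genes in each library, on the per-kilobase-of-exon scale. The ratio of *Atp2a2* to *Slc8a1* is lower in all 4 Vdac2-low libraries than in any Vdac2-high library, while *Casq2* to *Ryr2* overlaps.

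The skeletal muscle isoforms of the channel and of the pump were named after their values were seen. *Ryr1* was at 0.427, 0.671, 0.501 and 0.277 CPM in the Vdac2-low libraries and at 0.183, 0.190, 0.265 and 0.147 CPM in the Vdac2-high libraries, and *Atp2a1* at 0.788, 2.81, 1.19 and 1.39 CPM and 0.366, 0.685, 0.530 and 0.353 CPM. Both were higher without overlap (log2 ratios 1.31 and 1.52), from low counts of 5 to 22 reads and 10 to 92 reads. *Atp2a1* overlaps the gene *Rabep2*. Summed skeletal muscle markers were at 13.7 to 20.2 CPM against 12.5 to 16.0 CPM, and their part in this was not tested.

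Beyond the members, 5 lists of other genes of the same pathway held 56 genes, of which 54 matched a symbol and 49 were tested. In the split by *Vdac2* level, 4 were lower without overlap and 2 higher, against the 4.93% and 7.16% of all genes, with a median log2 ratio of -0.039. In the list of the release channel and its partners, 1 of 14 was lower: *Camk2d*, the kinase that phosphorylates the channel and phospholamban (228 to 233 CPM against 256 to 269.6 CPM). *Ryr1* was higher, while *Ryr3* (1.64 to 3.22 CPM against 2.76 to 4.53 CPM), *Itpr2* (41.7 to 59.0 against 50.5 to 59.4 CPM) and *Asph* (340.3 to 391 against 375 to 408 CPM) overlapped. Of 11 tested pump isoforms and regulators, 0 were lower and *Atp2a1* was higher. *Hax1* (3.48 to 4.17 against 2.88 to 3.50 CPM), which binds phospholamban, and *Srl* (1199 to 1461 against 1401 to 1594 CPM), which encodes the store protein sarcalumenin, overlapped, as did *Pde3a* (185 to 208 against 202 to 217 CPM) and *Ppp1cb* (342 to 389 against 371 to 403 CPM).

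In the junction and tubule scaffold, 2 of 8 tested genes were lower, *Mtm1* (33.6 to 41.2 CPM against 42.9 to 46.2 CPM, named after its values were seen) and *Jph1*, another junctophilin (22.7 to 25.1 CPM against 31.4 to 34.3 CPM, library 3 at 10.8 CPM). *Bin1*, which shapes the transverse tubules (8.21 to 9.33 against 6.62 to 8.48 CPM), *Tcap* (606 to 1004 against 721 to 1114 CPM) and *Speg* (71.1 to 92.1 against 90.8 to 121 CPM) overlapped. Of 10 genes for store buffers and counter-ion channels, 1 was lower, *Tmem38a*, the TRIC-A counter-ion channel (321 to 384 CPM against 392 to 437 CPM, library 3 at 107 CPM). *Selenon* (10.2 to 14.6 against 10.7 to 11.3 CPM), *Hsp90b1* (405 to 493 against 379 to 434 CPM) and *Cherp* (5.17 to 8.73 against 6.36 to 8.37 CPM) overlapped. Of 6 tested genes for extrusion across the plasma membrane, 0 were lower or higher without overlap. *Atp2b1* (88.6 to 109.8 against 104 to 116 CPM) and *Atp2b4* (13.8 to 24.8 against 16.5 to 22.9 CPM), calcium pumps of the surface membrane, overlapped, as did *Fxyd1* (119 to 142 against 125 to 139 CPM) and *Atp1b1* (149 to 168 against 154 to 182 CPM).

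**Figure D5:**
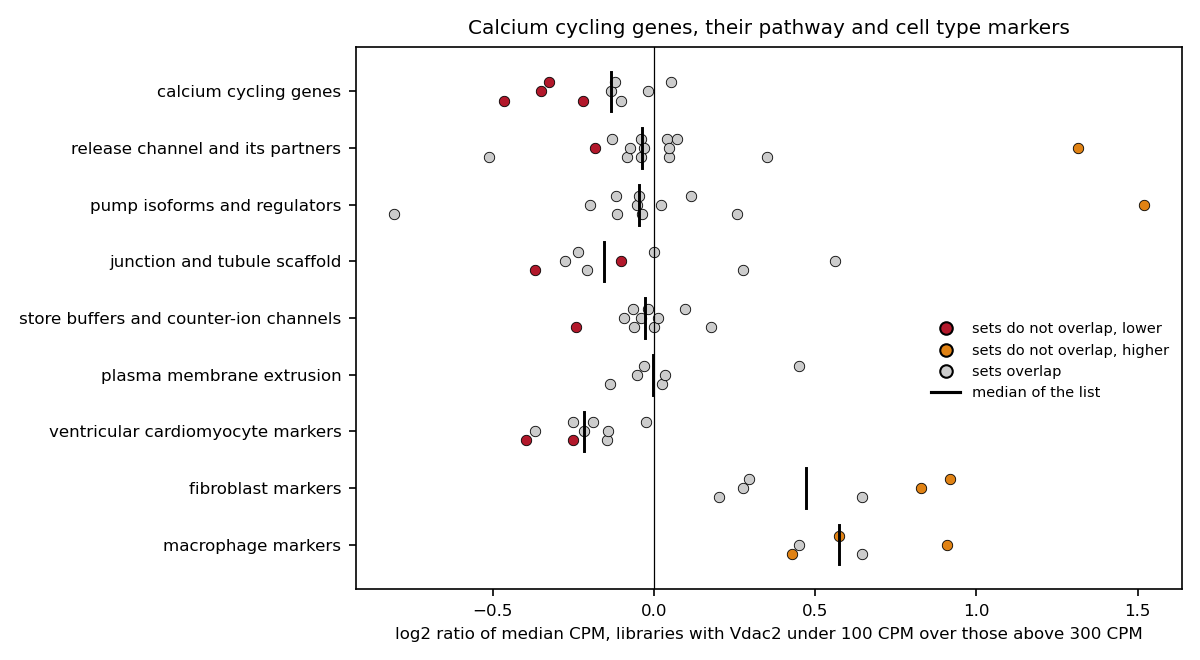
Log2 ratio of median CPM, Vdac2-low over Vdac2-high libraries, for each tested gene of the calcium cycling set, the 5 pathway lists and 3 cell type marker lists. Red points are lower without overlap, orange points higher without overlap and grey points overlap, and the black line is the median of a list.

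Library 3, labelled WT with *Vdac2* at 58.5 CPM, was below all 8 other libraries for 8 of the 9 expressed members. It was also below all 8 for 37.4% of all tested genes and above all 8 for 37.7%. As a share of the median of the other 8, it held 10.8% of *Hrc*, 15.5% of *Pln*, 18.1% of *Atp2a2* and 27.2% of *Ryr2*. It held more of *Trdn* (44.1%), *Casq2* (48.4%), *Jph2* (50.6%) and *Slc8a1* (63.5%), and 95.4% of *Casq1*. Per ventricular cardiomyocyte marker level the direction turned for these 5, at 1.67 times the median of the other 8 for *Trdn*, 1.88 for *Casq2*, 1.95 for *Jph2*, 2.46 for *Slc8a1* and 3.90 for *Casq1*. On that scale *Hrc* (0.412), *Pln* (0.579) and *Atp2a2* (0.681) remained below 1, and *Ryr2* was at 0.986. In this library the ventricular cardiomyocyte markers were at 16432 CPM and the fibroblast markers at 8213 CPM, as given above, and their part in its levels was not tested.

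By the deposited labels, which *Vdac2* contradicts in libraries 1, 5, 6 and 8, none of the 9 members differed beyond the spread between libraries. Library 3, labelled WT, held 58.5 CPM of *Vdac2* and only 16432 CPM of the ventricular cardiomyocyte markers, so its *Vdac2* was not set against its label. In the quasi-likelihood test of edgeR, adjusted by Benjamini-Hochberg over 16322 genes, 0 of 9 passed an adjusted p of 0.05, 0 had an unadjusted p under 0.05, and DESeq2 called 0. Over all genes 0.0551% were called, and 6.11% had an unadjusted p under 0.05. *Atp2a2* was 9548 ± 4352 CPM under the label WT (SD, n = 5) against 11692 ± 2248 CPM under the label KO (SD, n = 4) (log2 fold change 0.29, standard error 0.46, adjusted p = 0.82), all adjusted p-values here being from edgeR. *Ryr2* was 4349 ± 1696 CPM under the label WT (SD, n = 5) against 4747 ± 945 CPM under the label KO (SD, n = 4) (log2 fold change 0.13, standard error 0.38, adjusted p = 0.91) in the same edgeR fit, and *Pln* 6225 ± 2824 CPM under the label WT (SD, n = 5) against 8319 ± 726 CPM under the label KO (SD, n = 4) (log2 fold change 0.42, standard error 0.46, adjusted p = 0.75). *Jph2* was 234 ± 60.2 CPM under the label WT (SD, n = 5) against 295 ± 64.1 CPM under the label KO (SD, n = 4) (log2 fold change 0.33, standard error 0.23, adjusted p = 0.68) in edgeR. The remaining members had log2 fold changes between -0.23 (*Casq1*) and 0.28 (*Hrc*), with adjusted p of 0.68 to 0.85 from edgeR, and the median over the 9 was 0.28. The study dropped a WT sample because its RNA was of poor quality, and the sources used here do not name it, so all libraries were kept. Library 3 set much of the mean and SD under the label WT. Without it *Atp2a2* was at 11409.5 ± 1464 CPM, *Ryr2* at 5100.4 ± 273 CPM, *Pln* at 7480 ± 358 CPM and *Jph2* at 257 ± 35.3 CPM (SD, n = 4) under that label. The edgeR log2 fold changes then became 0.028 for *Atp2a2*, 0.15 for *Pln*, 0.19 for *Jph2*, 0.12 for *Casq2*, 0.055 for *Trdn* and 0.16 for *Slc8a1*, and turned to -0.11 for *Ryr2* and -0.0072 for *Hrc*. *Casq1* was at -0.29, and 0 of the 9 were called. Of the other libraries, leaving out library 1 moved *Casq1* to -0.095, and *Ryr2* ran from 0.025 without library 6 to 0.25 without library 9. Of the 49 tested pathway genes, 0 were called and 2 had an unadjusted p under 0.05 in edgeR, against the 6.11% of all genes, and leaving out library 3 gave 1 call, *Tcap*. The labelled groups overlap in *Vdac2*, so these values compare labels, lanes and sex-linked expression together.

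The genes whose pattern over the 9 libraries was most like a member were found by the mean absolute difference of centred log2 CPM, for the members whose levels spanned over 4-fold. For *Ryr2*, which spanned 4.26-fold, they were *Gm42989* (0.060), *Cacna1c* (0.065) and *Gm26601* (0.068). For *Atp2a2* they were *Egflam* (0.049), *Ppara* (0.059) and *4633401B06Rik* (0.061), for *Pln* *Ckm* (0.059), *Dnajc28* (0.069) and *Fsd2* (0.080) and for *Hrc* *Acsl1* (0.077), *Rbfox1* (0.085) and *Gm31013* (0.085). *Cacna1c* encodes the pore of the surface calcium channel, *Ckm* the muscle creatine kinase and *Ppara* a regulator of fatty acid use. The likeness is a description over 9 libraries, and the span of each of these members is set by library 3, which was lowest for all 4.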

How the data were processed

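Total RNA of the left ventricle was sequenced in 9 libraries. Before depositing the table, the authors extracted RNA with miRNeasy columns, made stranded libraries after ribosomal RNA removal (TruSeq, Ribo-Zero Gold) and sequenced 50-base single-end reads. The deposited values are raw counts of reads per gene for 52636 genes, without normalization. The submitters' processing notes name GRCm38, STAR 2.7.2c, featureCounts 1.6.3 and DESeq2, while the annotation release, strand setting and handling of multi-mapped reads are not given in the sources used here. Coordinates and exon lengths came from GENCODE M21 on GRCm38 (52403 genes matched).

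From the counts, edgeR 4.0.16 in R 4.3.3 was used with filterByExpr (16322 genes tested), TMM normalization and the robust quasi-likelihood F-test of the libraries labelled KO (n = 4) against those labelled WT (n = 5), with Benjamini-Hochberg adjustment over all tested genes. CPM are counts scaled to the TMM-normalized library size. The sets with *Vdac2* under 100 CPM and over 300 CPM, selected on the measured level, were described by values, medians and overlap, with no test. The 10 genes, the 5 pathway lists and the 8 cell type lists were chosen with earlier results of these data known. *Strit1* and *Erln*, of the pathway lists, matched no row. Some genes of the plasma membrane list are not reported here. Of each pathway list, the 4 genes with the largest absolute log2 ratio between the sets at a mean of at least 1 CPM were named, with the 3 genes most alike to each member that spanned over 4-fold. On counts simulated for these group sizes and depths (16133 genes), the test recovered 70.5% of 2-fold and 100% of 4-fold changes, with 0 of the wrong sign. The simulation gave every gene the same dispersion and every library of a label the same mean level. It held no library like library 3 and no mix of *Vdac2* levels within a label. Its recovery therefore does not measure what the fit of the real libraries could detect. Depth ran from 27345052 to 44673988 counts per library. Alternatives were DESeq2 1.42.0, RLE normalization, no low-count filter, library totals only, mitochondrially encoded genes left out, library 3 added to the Vdac2-low libraries, each label alone and each library left out in turn. Scaling by ventricular cardiomyocyte markers was added after the data were seen.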

Additional observations from a re-analysis of the deposited data

Results flagged for a closer look

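Within each label, the highest or lowest library was compared with the others of the same label by Dixon's criterion at the 95% level, for *Vdac2*, the 9 tested calcium cycling genes and 20 named genes of the pathway. 17 of 60 groups were past the criterion, where chance gives about 1 in 20, and 15 of the 17 were library 3, labelled WT. Over all tested genes 19.3% of groups were past it, and library 3 was past it in 32.9% of genes, so that such values are frequent in that library throughout. In library 3 the calcium cycling genes *Ryr2* (1344 CPM), *Pln* (1203 CPM), *Casq2* (548 CPM) and *Hrc* (58.7 CPM) lay far below the other libraries labelled WT. Of the pathway genes, library 3 stood apart in *Ryr3* (9.03 CPM), *Asph* (231 CPM), *Srl* (564 CPM), *Pde3a* (77.1 CPM), *Bin1* (31.9 CPM), *Tcap* (90.8 CPM), *Selenon* (33.4 CPM), *Hsp90b1* (879 CPM), *Cherp* (14.5 CPM), *Fxyd1* (56.6 CPM) and *Atp1b1* (217 CPM). Among the libraries labelled KO, library 6 was apart in *Casq1* (5.49 CPM) and library 7 in *Slc8a1* (723 CPM).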

How the results depend on the processing

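Between the labels, 9 genes were called by edgeR, 63 by DESeq2 (19861 genes tested), and 5 to 62 with a library left out, the highest without library 3. In each of these settings 0 of the 9 calcium cycling genes were called, and the pathway lists held 0 called genes except without library 3, which gave 1, *Tcap* (log2 fold change 0.58, standard error 0.10, adjusted p = 0.038 in edgeR, from 0.86 with all libraries), for a range of 0 to 1. Without library 3 the edgeR log2 fold changes of *Ryr2* and *Hrc* turned to -0.11 (adjusted p = 0.79) and -0.0072 (adjusted p = 0.99), and with each library left out in turn they ran from -0.11 to 0.25 and from -0.0072 to 0.42. In the split by *Vdac2* level, 4 genes were lower without overlap. It was 2 with library totals only and 1 per ventricular cardiomyocyte marker level, and 4 to 5 with a library left out, where it could not fall, since removing a library creates no overlap (*Pln* was added without library 9 and *Ryr2* without library 8). The count higher without overlap was 0, but 1 in libraries labelled WT only (*Casq1*, where 24.5% of all genes were higher) and 1 per marker level (*Casq2*). The median log2 ratio of -0.13 became 0.096 per marker level, a scaling that moved the median of all genes from 0.0050 to 0.24, and ran from -0.19 to -0.11 with a library left out. The cause of the other shifts was not tested. No paired analysis was possible because the labelled groups share no replicate number. Depth limits *Sln*, *Ryr1* and *Atp2a1*, which rest on few reads.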
